A study of Mus musculus with 26 samples.

Results

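The genes described here encode AP-1 transcription factors and 2 relatives in mouse CD4+ T cells. They were taken by gene symbol: Fos, Fosb, Fosl2, Jun, Junb, Jund, Batf3 and Atf3, which are 8 of the 21761 genes in both count tables. AP-1 is a dimer of basic leucine zipper proteins, typically one Fos-family and one Jun-family protein, that binds the TGACTCA element in promoters and enhancers. Fos, Fosb, Jun and Junb are immediate early genes, whose transcripts appear within minutes of a stimulus through MAP kinase signalling and are short-lived. In T cells, AP-1 assembled after antigen receptor and CD28 signalling binds DNA together with NFAT at genes such as Il2, and BATF proteins pair with JUN proteins and IRF4 at genes of effector T and regulatory T (Treg) cells.

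The study asked how vitamin C, a cofactor of the TET enzymes that oxidise methylcytosine in DNA, and loss of TET2 and TET3 affect Treg cells, which depend on the transcription factor FOXP3. RNA of 26 libraries from C57BL/6 mice was sequenced, all from cells of spleen and lymph nodes, and every mouse carried a Foxp3-eGFP reporter. In animals aged 5 to 6 weeks, naive CD4+ T cells were sorted by surface markers as eGFP-negative and CD25-negative. From naive cells, Th0 cells were made with anti-CD3/CD28, and induced Treg cells (iTregs) with TGFβ alone or with added retinoic acid (RA), vitamin C (VitC) or both, with 2 libraries for each of these 6 groups. Treg cells sorted directly from mice aged 3 weeks as CD4+eGFP+ had 4 libraries a genotype. The Tet2/3-deficient group was Tet2 fl/fl Tet3 fl/fl Foxp3-eGFP CD4-Cre. The control group had the same floxed alleles and reporter without Cre. CD4-Cre deletes in all cells that have passed through CD4 expression in the thymus, so other T cells of these mice carry the deletion too. In a separate table, mice aged 12 to 14 weeks gave Foxp3-positive TGFβ iTregs sorted on day 6 and Foxp3-negative cells sorted on day 6 after anti-CD3/CD28 restimulation of TGFβ iTregs, with 3 libraries each. The labels do not say whether replicates came from separate animals or cultures, so p-values measure only the spread between these samples, which may be technical.

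Library totals ran from 9647669 to 11640223 counts in the naive and cultured groups, from 13397602 to 17672302 in ex vivo Treg and from 11293704 to 17219805 in the restimulation table. Every group held Cd3e and Cd4 transcripts. Foxp3 ran from 13.5 to 26.3 CPM (counts scaled to the library total) in naive, Th0 and restimulated Foxp3-negative libraries and from 302 to 973 CPM in the others. In the Tet2/3-deficient libraries, counts over all exons were lower for Tet3 (log2 fold change -0.52 ± 0.10 SE, edgeR adjusted p = 0.00255), while Tet2 did not pass (0.02 ± 0.15, edgeR adjusted p = 0.93). Counts over all exons do not isolate the floxed part of either gene. Fold changes below are on the log2 scale with their standard error, and a gene is called at an edgeR Benjamini-Hochberg adjusted p under 0.05 over all genes tested. Every group of the first table except Tet2/3-deficient Treg stands in more than one comparison, so those comparisons share samples and their values are set side by side only. Where groups are said not to overlap, the share of all genes without overlap was not computed, so this describes the members only.

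The promoters of the members that moved most, Fos, Fosb, Jun and Junb, are shown first, as the bases just before each start. The RefSeq promoter table (build GRCm38.p6) matched all 8 members, and the 250 bases before each start are used here. Capitals mark exact matches, read on both strands.
Fos (chr12:85473640-85473889, plus strand): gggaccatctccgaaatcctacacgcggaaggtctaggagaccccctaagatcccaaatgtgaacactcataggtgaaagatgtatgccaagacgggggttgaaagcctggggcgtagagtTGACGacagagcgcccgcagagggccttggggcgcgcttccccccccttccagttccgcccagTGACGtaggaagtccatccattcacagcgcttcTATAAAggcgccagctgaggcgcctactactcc
Fosb (chr7:19310046-19310295, minus strand): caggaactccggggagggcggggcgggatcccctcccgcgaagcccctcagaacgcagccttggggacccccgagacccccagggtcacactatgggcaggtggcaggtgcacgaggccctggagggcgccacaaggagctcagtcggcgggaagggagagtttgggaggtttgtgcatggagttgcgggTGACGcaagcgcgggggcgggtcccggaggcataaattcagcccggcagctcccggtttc
Jun (chr4:95052223-95052472, minus strand): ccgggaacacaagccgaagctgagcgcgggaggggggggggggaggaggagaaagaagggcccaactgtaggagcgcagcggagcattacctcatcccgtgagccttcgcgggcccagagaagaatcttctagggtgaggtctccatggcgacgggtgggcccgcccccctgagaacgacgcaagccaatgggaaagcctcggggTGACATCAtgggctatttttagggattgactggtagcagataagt
Junb (chr8:84978749-84978998, minus strand): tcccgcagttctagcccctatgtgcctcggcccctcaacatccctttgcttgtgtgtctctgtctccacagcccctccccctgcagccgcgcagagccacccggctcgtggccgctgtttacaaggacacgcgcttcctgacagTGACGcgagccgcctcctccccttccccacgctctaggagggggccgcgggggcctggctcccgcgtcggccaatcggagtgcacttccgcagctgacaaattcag
The motifs searched were the AP-1 site TGACTCA or TGAGTCA, the cyclic AMP response element TGACGTCA, the variant TGACATCA, the CArG box, the E-box CACGTG, the shorter core TGACG and TATAAA. The last 2 were added after the sequences were seen. Jun holds TGACATCA at 45 to 38 bases before the start, a match found in 2.93% of 32851 promoter windows. In Fos, TGACG stands at 129 to 125 and again at 66 to 62 bases before the start, and TATAAA at 33 to 28. TGACG also stands at 60 to 56 bases before the start of Fosb, at 106 to 102 in Junb and, on the other strand, at 7 to 3 in Atf3. It is a common match, in 17.8% of all windows, while TATAAA is in 12.4%. Batf3 holds CACGTG at 247 to 242 bases before its start, in 6.02% of windows. None of the 8 windows holds TGACTCA or TGAGTCA (4.46% of all windows), TGACGTCA (1.55%) or the CArG box (1.47%), which says only that these letters are not there. Sequence farther than 250 bases from the start was not searched, so a gene may hold such elements outside its window. The windows of Fosl2 and Jund hold none of the motifs. Jund, the member that varied least, had 3 CpG dinucleotides in its window. The other 7 members had 15 to 27, against a median of 6 (quartiles 2 and 16) over all windows.

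**Figure D1:**
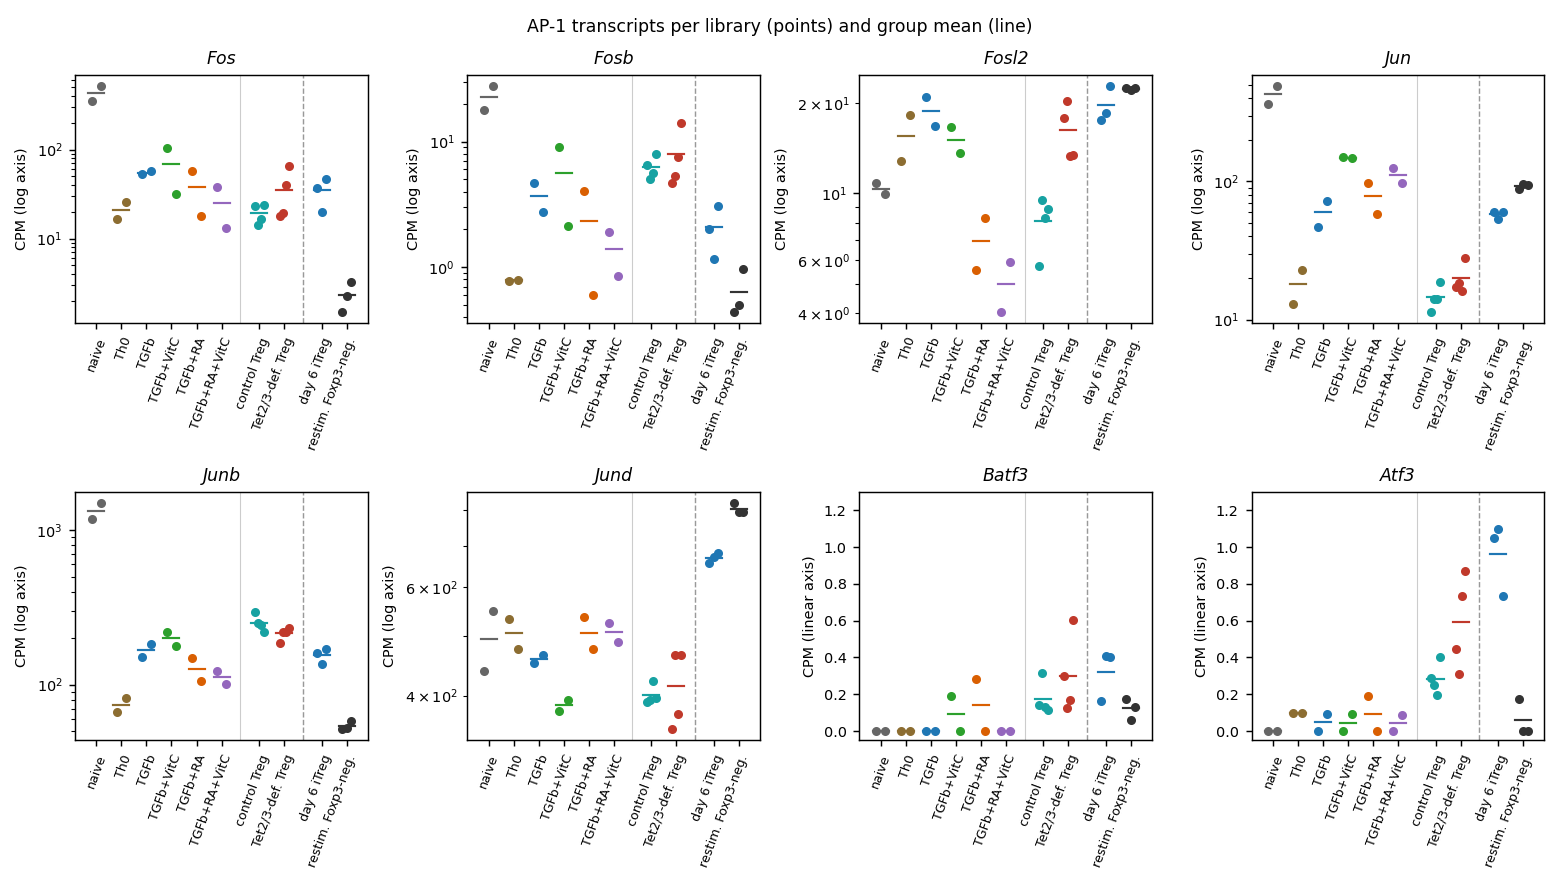
Each panel plots one gene, with a point per library and a line at the group mean, as CPM on a log axis for 6 genes and on a linear axis for Batf3 and Atf3. TGFb stands for TGFβ, and the dashed line separates the restimulation table. Both naive libraries stand above all other libraries of the first table for Fos, Fosb, Jun and Junb, while Jund spans a narrow range.

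Naive cells held by far the most AP-1 RNA, and most of it was Junb. Compared per length as FPKM, Junb stood at 577 and 730 in the 2 naive libraries. Fos stood at 169 and 248 FPKM, Jund at 153 and 191, and Jun at 115 and 155. The remaining members were lower in naive cells, with Fosb at 4.72 and 7.36 FPKM, Fosl2 at 1.75 and 1.61, and no counts of Batf3 or Atf3. Summed over the 8 genes, FPKM averaged 1180 ± 220 (SD, n = 2) in naive cells. In the 7 other groups of the first table, the mean of that sum lay between 230 (Th0) and 314 (TGFβ with VitC).

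The make-up of that sum differed between groups. Junb, which can restrain JUN activity and forms dimers with BATF in Treg and effector cells, made up 55.7% ± 1.2 (SD, n = 2) of the summed FPKM in naive cells. In Th0 cells it was 15.8% ± 2.5 (SD, n = 2), and Jund, the constitutively expressed Jun protein, made up 76.2% ± 5.2. In control Treg cells Junb held 43.9% ± 3.6 and Jund 50% ± 3.1 (SD, n = 4). Among the 4 iTreg cultures of the first table, the Jun share was lowest with TGFβ alone, at 6.42% ± 1.5 (SD, n = 2). It was highest with TGFβ and VitC, at 14.9% ± 1.6 (SD, n = 2). In restimulated Foxp3-negative cells Jund reached 82.2% ± 0.97 and Fos 0.329% ± 0.12 (SD, n = 3), against 66.9% ± 3.2 and 4.72% ± 1.7 on day 6. Batf3 and Atf3 each held at most 0.156% of the sum in any library.

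**Figure D2:**
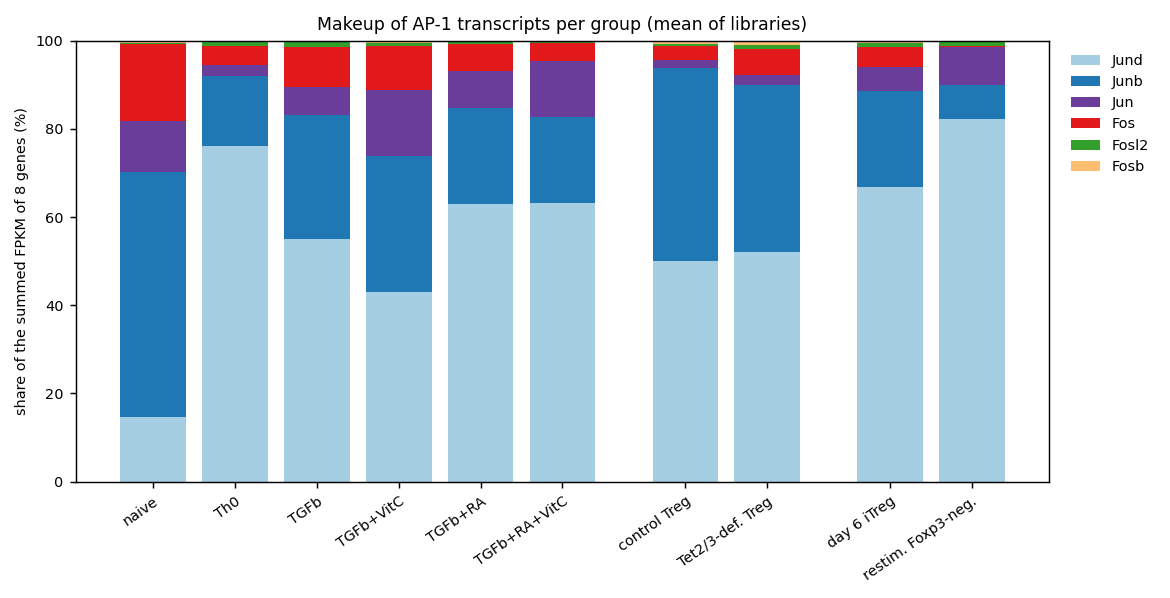
Bars show the mean share (%) of each gene in the FPKM summed over the 8 genes of a group, on a linear axis. Jund and Junb together fill most of every bar, and Batf3 and Atf3, too low to be seen, are not drawn.

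Across the 8 groups of the first table, in CPM, Fos ran from 436 ± 120 (SD, n = 2) in naive cells down through TGFβ with VitC (68.1 ± 52), TGFβ (55.0 ± 3.5), TGFβ with RA (37.7 ± 28), Tet2/3-deficient Treg (35.5 ± 22, n = 4), TGFβ with RA and VitC (25.4 ± 17), Th0 (21.2 ± 6.7) and control Treg (19.5 ± 4.8, n = 4). Below naive cells, every neighbouring pair in the Fos order had overlapping library ranges. For Jun the order had more gaps. It ran from naive cells (429 ± 89 CPM) to TGFβ with VitC (148 ± 1.8), TGFβ with RA and VitC (112 ± 19), TGFβ with RA (78 ± 28) and TGFβ (59.8 ± 18), and then to Tet2/3-deficient Treg, Th0 and control Treg at 19.9 ± 5.5, 18 ± 7.0 and 14.5 ± 3.0 CPM. The ranges of TGFβ with RA and TGFβ overlapped, and so did those of the 3 lowest groups. Junb was second highest in control Treg (252 ± 33 CPM, n = 4), which overlapped Tet2/3-deficient Treg, and lowest in Th0 (74.2 ± 11 CPM, n = 2). Below naive cells, mean Fosb was highest in the ex vivo Treg groups (7.92 ± 4.3 and 6.30 ± 1.3 CPM, n = 4) and lowest in Th0 (0.787 ± 0.0096 CPM, n = 2). The Fosb range of control Treg overlapped those of Tet2/3-deficient Treg and of TGFβ with VitC. The highest group mean was 29.6 times the lowest for Jun, 29.0 times for Fosb, 22.4 times for Fos and 18.1 times for Junb, but 3.78 times for Fosl2 and 1.31 times for Jund.

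Fosl2 (FRA2), a Fos-family protein without the transactivation domain of FOS, had an order of its own. TGFβ iTregs were highest (18.8 ± 3.0 CPM, n = 2), followed by Tet2/3-deficient Treg (16.2 ± 3.4, n = 4), Th0 (15.5 ± 3.9) and TGFβ with VitC (15.1 ± 2.2), whose neighbours all overlapped. Naive cells (10.4 ± 0.59) stood apart from the groups on either side. Control Treg (8.09 ± 1.6, n = 4), TGFβ with RA (6.94 ± 1.9) and TGFβ with RA and VitC (4.98 ± 1.3) were lowest, with overlapping neighbours.

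Over the 8 group means, on log2(CPM + 1), Fosb and Junb were the pair of members with the highest Pearson correlation (r = 0.95), followed by Fos and Junb (0.86) and Fos and Jun (0.82). All pairs use the same 8 points, which hold the large step between naive cells and the rest, so r is a description only. Among 8761 genes with a mean of at least 10 CPM, the 3 most like Junb were Smad7 (0.983), an inhibitor of TGFβ signalling, Usp12 (0.979) and Numb (0.977). Those most like Fosb were Ifngr2 (0.979), Ubxn11 (0.972) and Midn (0.969). Fos was most like Gramd1a (0.95), Cd2ap (0.95) and Cep164 (0.94), and Jun most like Bdp1 (0.997), Golga3 (0.99) and Pbrm1 (0.98). For Fosl2 the genes were Tigar (0.92), Amica1 (0.918) and Tinf2 (0.917), and for Jund they were Rbfa (0.958), Arl2bp (0.927) and Zfp472 (0.92).

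**Figure D3:**
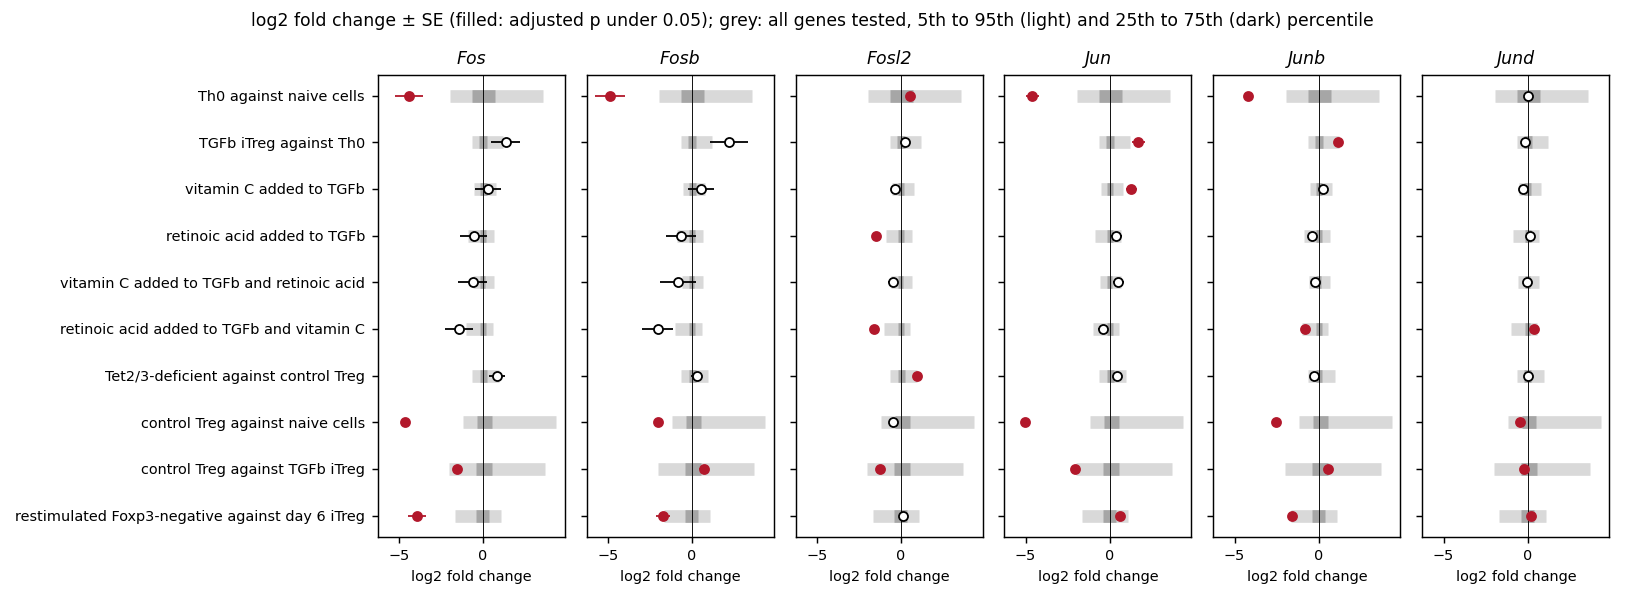
Points are log2 fold changes with their SE for the 6 members tested throughout, one row per comparison, and filled points passed an edgeR adjusted p of 0.05. Grey bands span the percentiles of all genes tested in that comparison. The fold changes of Fos, Jun and Junb in Th0 against naive cells lie below the 5th percentile, and all Jund values lie near 0.

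Culture with anti-CD3/CD28 left Fos, Fosb, Jun and Junb 18.4 to 29.1 times lower in Th0 cells than in naive cells, with Jund at the same level. Fos was 354 and 519 CPM in the naive libraries and 16.4 and 25.9 CPM in Th0. The groups did not overlap, and Fos fell by 4.40 ± 0.85 (edgeR adjusted p = 0.00315). Fosb, a close homologue of Fos, was 17.8 and 27.8 CPM in naive cells and 0.781 and 0.794 CPM in Th0, and fell by 4.86 ± 0.89 (edgeR adjusted p = 0.00125). Jun, the founding member of the Jun family, was 366 and 493 CPM against 13.0 and 22.9 CPM, and fell by 4.61 ± 0.38 (edgeR adjusted p = 8.71e-06). For Junb, 1180 and 1490 CPM in naive cells stood against 66.4 and 82.0 CPM in Th0, a fall of 4.20 ± 0.22 (edgeR adjusted p = 3.04e-08). For these 4 genes no Th0 library overlapped a naive one. Jund was 439 and 549 CPM in naive cells and 533 and 476 CPM in Th0, and the groups overlapped (log2 fold change 0.00 ± 0.10, edgeR adjusted p = 0.997). Fosl2 rose from 10.8 and 9.95 CPM to 12.8 and 18.3 CPM (0.55 ± 0.22, edgeR adjusted p = 0.0351). That call was lost without Th0 replicate 2 (0.31, edgeR adjusted p = 0.309), without either naive library (0.0806 and 0.146) and with DESeq2 (0.0594) or limma (0.0512), with a range of 0.0107 to 0.309 over all alternatives.

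Of the 6 members tested in this comparison, 4 fell, 1 rose and 1 did not pass, where 72% of the 11287 genes tested were called. The wider set of immediate early genes also stood lower: 25 of 32 tested fell and 3 rose, with a median log2 fold change of -1.74 against -0.01 over all genes. The largest falls were of Egr1 (-6.53 ± 0.25), Egr2 (-6.01 ± 0.33) and Rgs2 (-5.28 ± 0.16), where EGR1 and EGR2 are zinc finger factors induced by antigen receptor signals. Of the genes known to respond to tissue dissociation and heat shock, 6 of 18 rose and 9 fell, and Hspa1a (-7.71 ± 0.61) and Hspa1b (-7.61 ± 0.55), which encode HSP70, fell most. The summed level of that list was 7060 to 8200 CPM in naive cells and 9080 to 9410 CPM in Th0. What part sorting or dissociation of the naive cells had in the naive levels was not tested. In bulk RNA, fewer cells with a transcript and less RNA per cell cannot be told apart.

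Among the components upstream and around AP-1, 20 of 30 genes of the MAP kinase cascade fell and 9 rose in Th0 cells, with a median of -0.34. Hras (1.05 ± 0.12), Map3k1 (-0.99 ± 0.10) and Map2k6 (-0.92 ± 0.17) moved most. Of the factors that act on the Fos and Jun promoters, 11 of 12 fell and 1 rose (median -0.64), led by Stat3 (-1.26 ± 0.08), Mef2a (-1.16 ± 0.17) and Mef2d (-1.02 ± 0.10). The feedback inhibitors of MAP kinases were split, 6 of 12 higher and 4 lower. Dusp1, a phosphatase that is itself an immediate early gene, fell by 2.84 ± 0.20, while Spry4 (2.61 ± 0.60) and Spry1 (2.46 ± 0.20) rose. Other AP-1 and AP-1 binding zipper genes were also split, 8 of 20 higher and 9 lower, with Maf (-4.60 ± 0.86), Nfil3 (3.88 ± 0.27) and Jdp2 (2.95 ± 0.84) at the extremes. Of 16 tested T cell genes known to hold AP-1 sites, 8 rose and 4 fell, led by Il2ra (8.95 ± 0.14), the IL-2 receptor alpha chain. Myeloid markers summed to 366 to 421 CPM in naive cells and 187 to 197 CPM in Th0. Of 23 such markers, 9 were at 0 in naive cells and 13 in Th0, Csf1r and Spi1 among them in both. Of the 10 tested, 3 rose and 5 fell. Ctss averaged 321 CPM in naive cells and 94 CPM in Th0, and Itgam 7.35 and 0.196 CPM. Cst3 went the other way, at 40.6 and 69.1 CPM, as did H2-Ab1, at 0.256 and 16.4 CPM. CD8 T, NK and innate lymphoid markers summed to 99.7 to 110 CPM in naive cells and 16.8 to 17.9 CPM in Th0, and erythroid markers to 1.91 to 3.32 and 97.3 to 135 CPM. The part of these lists in the result was not tested.

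Adding TGFβ to the culture raised Jun and Junb above their Th0 levels. Jun was 46.9 and 72.8 CPM in TGFβ iTregs, against 13.0 and 22.9 CPM in Th0. Junb was 151 and 182 CPM, against 66.4 and 82.0 CPM. Neither gene's groups overlapped, and Jun rose by 1.71 ± 0.38 (edgeR adjusted p = 0.0136) and Junb by 1.14 ± 0.20 (2.2-fold, edgeR adjusted p = 0.00285). Fos stood at 52.5 and 57.5 CPM against 16.4 and 25.9 CPM (1.35 ± 0.85, edgeR adjusted p = 0.293). Fosb stood at 4.65 and 2.77 CPM against 0.781 and 0.794 CPM (2.19 ± 1.12, edgeR adjusted p = 0.191). Neither passed. Their groups did not overlap, which says little with 2 libraries a group. Fosl2 (0.25 ± 0.20, edgeR adjusted p = 0.387) and Jund (-0.17 ± 0.10, edgeR adjusted p = 0.244) did not pass either. With only the 4 libraries of these groups in the fit, Fos (edgeR adjusted p = 0.00104) and Fosb (0.000488) passed and Jun (0.11) did not. Over all alternatives the ranges were 0.00104 to 0.592 for Fos, 0.000488 to 0.503 for Fosb and 0.000248 to 0.11 for Jun, which also missed without TGFβ replicate 2 (0.0741).

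These 2 calls among 6 members stood beside 26.1% of all genes called. Other immediate early genes rose with TGFβ in 19 of 32 cases and fell in none (median 0.61), led by Nr4a3 (2.21 ± 0.43), Nr4a1 (1.64 ± 0.23) and Rgs1 (1.62 ± 0.19), the first 2 of which encode nuclear receptors induced by antigen receptor signals. Their summed level was 2860 to 2930 CPM in TGFβ iTregs and 2130 CPM in both Th0 libraries. Of the MAP kinase feedback inhibitors, 4 of 12 rose and 1 fell, and the largest changes were of Dusp4 (2.28 ± 0.26), Dusp1 (1.21 ± 0.20) and Spry1 (-0.77 ± 0.17). MAP kinase cascade genes were mostly uncalled, with 5 of 30 higher and 4 lower (median 0.03). Among effector Treg genes linked to BATF and JUNB, 9 of 11 rose and none fell, led by Ikzf2 (3.62 ± 0.18), Ebi3 (2.14 ± 0.14) and Itgae (2.07 ± 0.59). For other zipper genes, 4 of 20 rose and 4 fell, led by Maf (4.80 ± 0.83), Crem (2.01 ± 0.14) and Nfil3 (-0.97 ± 0.19).

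**Figure D4:**
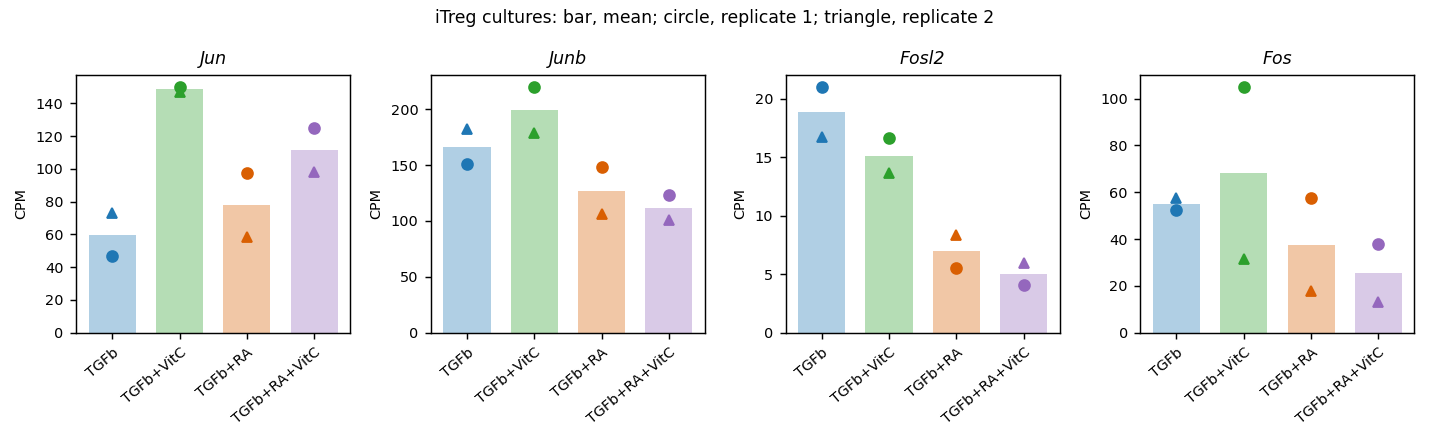
Bars are group means on a linear CPM axis starting at 0, with a circle for replicate 1 and a triangle for replicate 2 of each iTreg culture. Jun is highest with VitC, Fosl2 is lowest where RA was added, and the 2 replicates of Fos lie far apart in 3 of 4 conditions.

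Vitamin C added to TGFβ raised 1 member, Jun. The 2 libraries with vitamin C held 150 and 147 CPM of Jun, above both TGFβ libraries at 46.9 and 72.8 CPM. The rise was 1.29 ± 0.33 (2.44-fold, edgeR adjusted p = 0.0343). The call was lost without any single one of the 4 libraries (edgeR adjusted p from 0.0649 to 0.175), without a count filter (0.074) and with a replicate block (0.0654), while the fold change stayed between 1.008 and 1.631. Jund was 377 and 394 CPM with vitamin C and 452 and 466 CPM without (-0.28 ± 0.10, edgeR adjusted p = 0.0792), and the groups did not overlap. Jund passed under 3 alternatives: with the replicate block (0.0475), without a count filter (0.0422) and with only these groups' libraries (0.0221), out of a range of 0.0221 to 0.261. Fos, Fosb, Fosl2 and Junb did not pass (edgeR adjusted p from 0.258 to 0.837). Of all genes tested, 16.8% were called.

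The 2 libraries with vitamin C differed 3.35-fold in Fos, at 105 and 31.3 CPM, and 4.27-fold in Fosb, at 9.07 and 2.12 CPM. The same held with RA (3.20-fold for Fos and 6.76-fold for Fosb) and with RA and vitamin C (2.89-fold and 2.24-fold). Replicate 1 was the higher library each time, and over 28 to 29 other immediate early genes with at least 1 CPM the median ratio of replicate 1 to 2 was 0.965 to 1.09 in these 3 groups. Single genes of that list ran from 0.457 to 2.63. A ratio above 1.5 was seen for 5 of 29 with vitamin C, 3 of 28 with RA and 2 of 29 with both. With TGFβ alone Fos stood at 52.5 and 57.5 CPM, a ratio of 0.914. Of all genes averaging at least 10 CPM, 0.336% to 0.793% had a ratio of replicate 1 to 2 above 1.5 in these 3 groups. The standard errors of Fos and Fosb ran from 0.77 to 1.12 in the pairwise comparisons among cultures, and no change of either was called there.

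Other immediate early genes rose with vitamin C in 8 of 32 cases and fell in 1 (median 0.32), with Nr4a3 (1.18 ± 0.27), Btg1 (0.77 ± 0.09) and Sik1 (0.71 ± 0.15) leading. Of the MAP kinase feedback inhibitors, 5 of 12 rose and none fell, led by Dusp1 (1.16 ± 0.18), Dusp4 (0.99 ± 0.21) and Spry1 (0.67 ± 0.17). Zipper genes other than the 8 rose in 6 of 20 cases and fell in none: Maf (2.51 ± 0.34), Jdp2 (2.19 ± 0.29), which encodes a repressor that pairs with JUN, and Bach2 (0.86 ± 0.12), which encodes a repressor at AP-1-like sites that restrains effector differentiation, were the largest. Of the cascade genes, 2 of 30 rose and 1 fell. Among heat shock and dissociation genes none of 18 rose and 4 fell. Erythroid marker sums were 55.5 to 75 CPM with vitamin C and 142 to 194 CPM without, and myeloid sums 366 to 378 and 275 to 277 CPM. Of the 10 myeloid markers tested, 3 rose and none fell, and 10 of 23 were at 0 in each group, Csf1r among them. The part of either marker list in these results was not tested.

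Retinoic acid lowered Fosl2, in both media. With TGFβ, Fosl2 was 21.0 and 16.7 CPM without RA and 5.57 and 8.31 CPM with it, and fell by 1.46 ± 0.23 (2.74-fold lower, edgeR adjusted p = 0.000416). With TGFβ and vitamin C it was 16.6 and 13.6 CPM without RA and 4.04 and 5.93 CPM with it, and fell by 1.59 ± 0.24 (3.02-fold lower, edgeR adjusted p = 0.000286). Both RA libraries lay below both others each time, and both calls held under every alternative run. Fosl2 was the only member called for RA on TGFβ alone, where 16.5% of genes were called. In the medium with vitamin C, RA also lowered Junb, from 220 and 179 CPM to 123 and 101 CPM (fell by 0.84 ± 0.20, edgeR adjusted p = 0.0163). Jund rose there from 377 and 394 CPM to 524 and 489 CPM (0.39 ± 0.10, edgeR adjusted p = 0.0175). The low Jund of the same VitC libraries enters both this comparison and that of vitamin C on TGFβ. These 3 calls among 6 members stood beside 15.1% of all genes.

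The Junb and Jund calls were less firm than that of Fosl2. Junb missed with the replicate block (edgeR adjusted p = 0.0672), without a filter (0.0733) and without RA and VitC replicate 2 (0.133) or VitC replicate 1 (0.129), over a range of 0.00343 to 0.133. Jund missed without RA and VitC replicate 1 (0.128) and without VitC replicate 1 (0.13) or 2 (0.0608), over a range of 0.00303 to 0.13. Jun, at 125 and 98.2 CPM with RA and VitC, lay below both VitC libraries (-0.41 ± 0.32, edgeR adjusted p = 0.481). Fosb lay below them too (1.92 and 0.859 against 9.07 and 2.12 CPM, -2.03 ± 0.92, edgeR adjusted p = 0.208). Fos did not pass (-1.44 ± 0.82, edgeR adjusted p = 0.332).

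Batf, a Treg-expressed AP-1 protein named here after its values were seen, fell with RA by 0.64 ± 0.13 on TGFβ and by 1.14 ± 0.13 on TGFβ and VitC. Of the other zipper genes, 3 of 20 rose and 4 fell in the first case, and 0 rose and 5 fell in the second, in which Crem (-2.46 ± 0.14) and Maf (-1.67 ± 0.31) fell most. Among effector Treg genes linked to BATF and JUNB, 6 of 11 fell and 1 rose in the second case (median -0.62). Prdm1 (-1.37 ± 0.29) and Rora (-1.21 ± 0.37) were lower, and Itgae (2.88 ± 0.32), which encodes the integrin chain CD103, was higher. T cell genes with AP-1 sites fell in 5 of 16 cases and rose in 1, the largest changes being of Xcl1 (7.41 ± 1.37), Tnfrsf9 (-2.82 ± 0.58) and Tnfrsf4 (-1.27 ± 0.13). The MAP kinase feedback inhibitors fell in 5 of 12 cases and rose in none, led by Spry4 (-3.21 ± 0.96), Dusp4 (-1.97 ± 0.22) and Spry1 (-0.88 ± 0.17). In that comparison, myeloid markers summed to 366 to 378 CPM without RA and 145 to 149 CPM with it, erythroid markers to 55.5 to 75 and 8.94 to 16.8 CPM, and CD8 T, NK and innate lymphoid markers to 29.4 to 34.6 and 61.1 to 62 CPM. For RA on TGFβ alone the sums were 275 to 277 and 140 to 155 CPM for myeloid, 142 to 194 and 39.2 to 72 CPM for erythroid, and 20.6 to 21.5 and 32.1 to 32.9 CPM for CD8 T, NK and innate lymphoid markers. Of 10 myeloid markers tested, 5 fell and 1 rose with RA on TGFβ and VitC. On TGFβ alone, 7 of these 10 fell with RA and none rose. Ctss averaged 218 CPM with TGFβ and VitC and 46 CPM with RA added, while Adgre1 averaged 12.9 and 20.5 CPM. The part of these marker lists in the results was not tested. The 2 RA comparisons use different control libraries.

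When vitamin C was added to TGFβ and RA, no member was called by edgeR, none had an unadjusted p under 0.05 (lowest 0.09), and DESeq2 and limma called 0 as well, beside 7.54% of all genes. Jun was 125 and 98.2 CPM with vitamin C and 97.5 and 58.6 CPM without (0.50 ± 0.33, edgeR adjusted p = 0.448). Its groups lay just apart. Around the members, 2 of 20 other zipper genes rose and 1 fell, led by Jdp2 (1.44 ± 0.31), Crem (-0.89 ± 0.15) and Bach2 (0.42 ± 0.12), and Dusp1 (1.12 ± 0.19) was the largest of 2 feedback inhibitors that rose. Whether the response to vitamin C differed with RA was tested as an interaction. No member passed in edgeR (adjusted p = 1 for all 6, lowest unadjusted p 0.0929), and DESeq2 and limma called 0. In that test 0.0177% of genes were called, 2 in all, and 564 had an unadjusted p under 0.05. For Jun the difference of the responses was -0.79 ± 0.46 and for Jund 0.26 ± 0.15. The call for Jun with TGFβ alone is therefore not shown to differ from the response with RA.

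Control Treg cells, taken straight from mice, had little Fos and Jun RNA but much Junb. Against naive cells, 5 of 6 members fell, beside 54.9% of all genes called (52.1% of them higher, or 63.5% with limma on FPKM). Fos was 23.3, 14.1, 16.8 and 23.8 CPM against 354 and 519 CPM, and fell by 4.63 ± 0.24 (24.7-fold lower, edgeR adjusted p = 9.41e-06). Jun was 11.4, 14.0, 14.1 and 18.7 CPM against 366 and 493 CPM, and fell by 5.02 ± 0.19 (32.4-fold lower, edgeR adjusted p = 2.06e-07). Junb, at 296, 250, 244 and 218 CPM, fell by 2.55 ± 0.12 (5.86-fold lower, edgeR adjusted p = 1.74e-07), and Fosb, at 5.03 to 7.99 CPM, by 1.99 ± 0.22 (3.98-fold lower, edgeR adjusted p = 2.72e-05). No control library overlapped a naive one for these 4 genes. Jund fell by 0.44 ± 0.09 (edgeR adjusted p = 0.00254), a call lost without naive replicate 2 (0.0678, range over the alternatives 0.000247 to 0.0678). Fosl2, at 5.73 to 9.49 CPM, did not pass (-0.49 ± 0.22, edgeR adjusted p = 0.0748).

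The other immediate early genes did not move as one in this comparison, with 12 of 32 higher and 16 lower (median -0.28 against 0.01 over all genes). Ppp1r15a (-4.08 ± 0.12) and Zfp36 (-2.19 ± 0.08), an RNA-binding protein that destabilises short-lived transcripts, fell, and Rgs1 rose by 3.57 ± 0.17. Egr1, named here after its values were seen, differed by -0.32 ± 0.10, where Fos differed by -4.63. Effector Treg genes linked to BATF and JUNB rose in 18 of 18 cases, with Il1rl1 (12.76 ± 0.57), Klrg1 (10.23 ± 0.51) and Tigit (9.68 ± 0.21) leading, fitted values that rest on few counts in naive cells. Only 11 of the 18 were tested among the naive and cultured libraries. The others passed the count filter here largely through control Treg, so the count of 18 is no test of direction. Among NFAT and IRF partners 4 of 14 rose and 7 fell, and Irf4 (3.37 ± 0.13) and Irf8 (2.23 ± 0.23) rose most. B cell markers summed to 55.9 to 137 CPM in control Treg and 5.24 to 6.22 CPM in naive cells, and myeloid markers to 688 to 738 and 366 to 421 CPM. Erythroid and platelet markers summed to 398 to 963 and 1.91 to 3.32 CPM, with 6 of 6 tested higher. Only 3 of these markers were tested among the naive and cultured libraries, so the others passed the count filter largely through control Treg. The part of these lists was not tested. Control Treg and naive cells differ in age, in the floxed alleles and in the sort as well as in cell type, and these cannot be told apart.

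Set beside TGFβ iTregs, control Treg cells were lower in 4 members and higher in 2, beside 61.4% of all genes called. Jun (fell by 2.08 ± 0.21, edgeR adjusted p = 4.76e-05), Fos (fell by 1.54 ± 0.19, edgeR adjusted p = 0.000109), Fosl2 (fell by 1.26 ± 0.20, edgeR adjusted p = 0.000357) and Jund (fell by 0.24 ± 0.08, edgeR adjusted p = 0.0189) were lower. Junb (0.55 ± 0.13, edgeR adjusted p = 0.00419) and Fosb (0.72 ± 0.28, edgeR adjusted p = 0.0431) were higher. No groups overlapped for any of the 6, which has no count over all genes beside it. The weaker of these calls turned on single libraries: Fosb missed without TGFβ replicate 2 (0.35) or control S3 (0.0523) or S4 (0.0986), with DESeq2 (0.064) and with all 20 libraries of the first table (0.335), over a range of 0.028 to 0.35. Junb missed without TGFβ replicate 1 (0.0564, range 0.000161 to 0.0564). Jund missed without either TGFβ library (0.0838 and 0.118), without control S2 (0.0517) and with all 20 libraries (0.0777), over a range of 0.00909 to 0.118. Other immediate early genes were higher in 21 of 32 cases and lower in 4 (median 0.82), led by Egr2 (9.41 ± 0.22), Egr3 (5.89 ± 0.17) and Egr1 (4.62 ± 0.15), while Fos and Jun were lower. B cell markers summed to 55.9 to 137 CPM in control Treg and 3.53 to 4.10 CPM in TGFβ iTregs, and erythroid markers to 398 to 963 and 142 to 194 CPM. Myeloid markers summed to 688 to 738 and 275 to 277 CPM (14 of 19 tested higher), and CD8 T, NK and innate lymphoid markers to 101 to 112 and 20.6 to 21.5 CPM (10 of 10 higher). Among the naive and cultured libraries, 10 markers of the first list and 9 of the second were tested. The others passed the count filter largely through control Treg. The part of these marker lists in the differences was not tested, and the same confounding by age, alleles and source holds.

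Tet2/3-deficient Treg cells held more Fosl2 than control Treg cells. Fosl2 was 5.73, 9.49, 8.27 and 8.85 CPM in the control libraries and 17.8, 20.3, 13.3 and 13.4 CPM in the deficient ones. Each deficient library lay above each control library, and Fosl2 rose by 0.96 ± 0.18 (1.94-fold, edgeR adjusted p = 0.00225). The call held under every alternative, with a fold change of 0.65 to 1.05. Fosl2 was the only one of 6 members called, beside 32.5% of all genes. Junb was lower on average, at 186, 220, 220 and 232 CPM against 296, 250, 244 and 218 CPM. Its groups overlapped and it narrowly missed (-0.27 ± 0.10, edgeR adjusted p = 0.0518). It passed with DESeq2 (0.0269), RLE factors (0.0461), no filter (0.0335) and without control S4 (0.0176), over a range of 0.0176 to 0.125.

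Fos was 17.7, 19.2, 39.8 and 65.4 CPM in the deficient libraries and 23.3, 14.1, 16.8 and 23.8 CPM in the controls. Libraries S7 and S8 were high and S5 and S6 lay within the control range, and Fos did not pass (0.83 ± 0.46, edgeR adjusted p = 0.207). Fosb followed the same order within the deficient group, from 4.70 and 5.37 CPM to 7.53 and 14.1 CPM (0.30 ± 0.33, edgeR adjusted p = 0.53). Jun (0.42 ± 0.20, edgeR adjusted p = 0.131) and Jund (0.01 ± 0.09, edgeR adjusted p = 0.942) did not pass, and their groups overlapped. Of 31 other immediate early genes 6 rose and 13 fell (median -0.17), Nr4a2 (1.60 ± 0.13), Rgs2 (0.97 ± 0.07) and Ier5l (0.96 ± 0.21) rising most. Of the MAP kinase cascade, 8 of 30 genes fell and none rose (median -0.09), led by Prkca (-0.59 ± 0.09), Mapk11 (-0.46 ± 0.09) and Map3k1 (-0.43 ± 0.09). The feedback inhibitors fell in 4 of 14 cases and rose in none, with Dusp6 (-1.09 ± 0.11), a MAP kinase phosphatase, and Dusp7 (-0.82 ± 0.08) first. Other zipper genes were 1 of 20 higher and 5 lower, Creb3l2 (-1.32 ± 0.08), Maf (-0.98 ± 0.09) and Crem (0.83 ± 0.11) changing most, and Batf was at 0.08 ± 0.08 (edgeR adjusted p = 0.44). Of the NFAT and IRF partners 3 of 14 rose and 5 fell, with Runx3 (0.86 ± 0.08) and Irf4 (0.76 ± 0.09), the partner of BATF and JUN dimers, higher.

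Effector Treg genes linked to BATF and JUNB fell in 10 of 18 cases in Tet2/3-deficient cells and rose in 3 (median -0.49 against 0.001 over all genes), with Il10 (-4.35 ± 0.29), Il1rl1 (-2.75 ± 0.26) and Klrg1 (-2.06 ± 0.28) first. Markers of other cells moved in part with genotype. CD8 T, NK and innate lymphoid markers summed to 209 to 272 CPM in deficient and 101 to 112 CPM in control libraries, with 7 of 12 tested higher and 3 lower. B cell markers summed to 57.8 to 81.5 and 55.9 to 137 CPM, myeloid markers to 653 to 760 and 688 to 738 CPM, and erythroid markers to 270 to 556 and 398 to 963 CPM. Heat shock and dissociation genes rose in 7 of 20 cases and fell in 3, and their sum was 8050 to 9250 CPM in deficient and 6540 to 7640 CPM in control libraries. The part of any of these in the Fosl2 difference was not tested.

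In Foxp3-negative cells sorted after restimulation, Fos, Fosb and Junb were lower than in day 6 Foxp3-positive iTregs, and Jun and Jund were higher. Fos was 37.1, 19.8 and 47.2 CPM on day 6 and 1.51, 2.27 and 3.22 CPM in the restimulated cells, and fell by 3.91 ± 0.52 (15.1-fold lower, edgeR adjusted p = 0.00176). Junb was 160, 136 and 171 CPM against 51.7, 52.6 and 58.2 CPM, and fell by 1.60 ± 0.08 (3.03-fold lower, edgeR adjusted p = 2.97e-10). Fosb was 2.01, 1.16 and 3.07 CPM against 0.443, 0.504 and 0.967 CPM, and fell by 1.71 ± 0.41 (edgeR adjusted p = 0.00191). None of these groups overlapped. Jun went the other way, from 60.0, 53.7 and 60.4 CPM to 87.7, 96.1 and 93.6 CPM (0.60 ± 0.06, 1.51-fold, edgeR adjusted p = 6.20e-07). Jund rose from 655, 670 and 681 CPM to 820, 793 and 792 CPM (0.19 ± 0.05, 1.14-fold, edgeR adjusted p = 0.00581), again with no overlap. Fosl2, at 17.6, 18.5 and 22.8 CPM against 22.4, 22.1 and 22.4 CPM, did not pass (0.10 ± 0.10, edgeR adjusted p = 0.361). It passed only without day 6 replicate 3 (0.0304, range over the alternatives 0.0304 to 0.719).

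Leaving aside Atf3, which passed the count filter only through the day 6 group, 3 of 6 members tested fell and 2 rose, beside 68.8% of all genes called. Of 31 other immediate early genes 18 fell and 7 rose (median -0.74 against -0.01 over all genes), and Nr4a1 (-6.29 ± 0.22), Egr3 (-4.49 ± 0.23) and Nr4a3 (-4.04 ± 0.41) fell most. Their summed level nevertheless ran from 2330 to 2470 CPM on day 6 and from 3320 to 3530 CPM after restimulation. The MAP kinase cascade rose in 15 of 30 cases and fell in 6 (median 0.15), with Rps6ka3 (1.36 ± 0.08) and Nras (0.84 ± 0.06) among those that rose. Feedback inhibitors fell in 8 of 14 cases and rose in 3 (median -0.59), and Spred3 (-3.31 ± 0.41), Dusp4 (-1.72 ± 0.16) and Dusp1 (-1.44 ± 0.08) fell most. T cell genes with AP-1 sites fell in 11 of 15 cases and rose in 4 (median -0.86), among them Tnfrsf9 (-6.04 ± 0.25), Lag3 (-5.80 ± 0.91) and Mmp9 (-3.72 ± 0.18). Other zipper genes were 9 of 20 higher and 8 lower, with Maff (-3.90 ± 0.28), Nfil3 (-2.03 ± 0.11) and Bach1 (1.78 ± 0.10) changing most. Heat shock and dissociation genes fell in 13 of 19 cases and rose in 2. CD8 T, NK and innate lymphoid markers summed to 23.4 to 26.1 CPM on day 6 and 198 to 202 CPM after restimulation, and myeloid markers to 353 to 437 and 220 to 233 CPM, with their part not tested. Foxp3 state, restimulation and time in culture changed together and cannot be told apart.

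Batf3 and Atf3 were near the limit of detection. Batf3 supports the dendritic cell lineage that cross-presents antigen and is also found in activated T cells, and ATF3 is a stress-induced factor that pairs with JUN. In the 12 naive and cultured libraries Atf3 had 0 to 2 counts and Batf3 0 to 3. In the 8 ex vivo Treg libraries Atf3 had 3 to 13 counts and Batf3 2 to 9. Both were therefore below the count filter in every comparison of the first table. Over the 4 libraries of a group, Atf3 had 37 counts in Tet2/3-deficient and 18 in control Treg, a ratio of CPM of 2.08 with an exact 95% interval of 1.15 to 3.87. Without a filter its edgeR adjusted p was 0.132. Without a filter Atf3 also passed for control Treg against naive cells (edgeR adjusted p = 0.0278), where both naive libraries were at 0 counts and the fitted value gives no fold. As all counts there come from control Treg, that pass is a description only. Batf3 had 18 and 11 counts, a ratio of 1.65 (0.739 to 3.87). These intervals cover counting error only. Xcr1 and Clec9a, defining genes of the dendritic cells that need BATF3, were at most 1.15 CPM in ex vivo Treg, and Csf1r, a macrophage gene, ran from 5.82 to 54.1 CPM in the deficient and 8.01 to 24.5 CPM in the control libraries, with its part not tested.

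In the restimulation table Atf3 had 13, 19 and 11 counts on day 6 and 2, 0 and 0 counts after restimulation, which did not overlap. The total of 43 against 2 counts gave 20.6 times the CPM on day 6, with an exact 95% interval of 5.36 to 175. Atf3 passed the count filter only through the day 6 libraries, so this is given as a description, with no test. Batf3 had 2, 7 and 6 counts on day 6 and 2, 1 and 2 counts after restimulation, a ratio of 2.87 (0.991 to 10.1), and was below the filter.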

How the data were processed

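Per the submitters' processing notes, the tools were TopHat2 (version 2.1.1) with build mm9, edgeR (version 3.26.6) under R (version 3.6.1), Picard (version 2.5.0), Trim Galore (version 0.4.2), SAMtools (version 1.7) and bcl2fastq. The libraries were made with a stranded mRNA kit, per the labels. The counting tool, annotation and strand setting are not given in the sources used here. The deposited count tables hold whole reads over exons for 21761 genes (92 without a symbol), split into 1 table of 20 libraries and 1 of 6 from the restimulation. Deposited FPKM values were checked to be count over total and exon length (largest relative difference 2.4e-07). The tables were not pooled.

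Counts were tested in R 4.3.3 with edgeR 4.0.16 by the quasi-likelihood test (TMM, filterByExpr, robust, 2-sided), adjusting p over all genes tested (Benjamini-Hochberg) and calling at 0.05. The 12 naive and cultured libraries shared a fit, and the other comparisons used only their own libraries. The SE is the log2 fold change over the square root of F. CPM per library is the count over the raw library total. Ex vivo Treg columns gave the group but carry S numbers that match no single sample. The members and the 17 gene lists were chosen with earlier results of these data known. The text names all 8 members, for the 6 with enough counts the 3 genes most like each, up to 3 called genes with the largest change from a list it describes, and Foxp3, Tet2 and Tet3 as checks. Single marker genes of other cells, Batf and Egr1 were named after their values were seen. Replicates differed beyond sampling noise (chi-square per degree of freedom 2.289 to 23.6), so each was counted. On simulated counts, 78% to 92% of genes changed 2-fold were recovered in each of 10 pairwise comparisons (the interaction was not simulated), and 1.25% to 9.19% of calls were of unchanged genes. Only a small part of the genes was changed there, while up to 72% were called in the data. These rates therefore describe the simulated setting only. Alternatives were DESeq2 1.42.0, RLE factors, no filter, limma 3.58.1 on log2(FPKM + 1), a replicate block, other sets of libraries and leaving out each library.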

Additional observations from a re-analysis of the deposited data

Results flagged for a closer look

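One value stood apart within its group by Dixon's test. In the control Treg library S2, Batf3 reached 0.314 CPM, from 5 counts, while each of the other libraries of the group had 2 counts. Its gap to the nearest library was 0.858 of the group's range, above the critical value for 4 samples at 95%. The test was run on 16 pairs of a member and a group, and chance flags about 1 in 20 groups of continuous, normal values. With libraries tied at 2 counts, that rate need not hold here.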

How the results depend on the processing

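Of 30 member changes called, 21 kept their call under every alternative run and none reversed. Both counts include Atf3, which passed the count filter only through the day 6 libraries, so its call is no support. No such tally was made over all genes. On leaving out a library, the counts of called genes ran over these ranges: 1480 to 1945 of all genes for TGFβ against Th0 (main 2943), 771 to 1001 for vitamin C on TGFβ (1900), 795 to 1898 for RA on TGFβ (1860), 424 to 899 for vitamin C on TGFβ and RA (851), 819 to 1367 for RA on TGFβ and VitC (1706) and 1 to 11 for the interaction (2). Each of these leaves 1 library in an arm, assumed to vary like the others. Members called ran from 1 to 2 for TGFβ against Th0, 0 to 0 for vitamin C on TGFβ, 1 to 2 for RA on TGFβ and VitC and 1 to 2 for Tet2/3 deficiency. The interaction called 17 genes with DESeq2 (17.6% of them higher), 25 without a filter, 21 with limma and 26 with a replicate block. Vitamin C on TGFβ and RA called 487 genes with only its own libraries. With only those of its groups, vitamin C on TGFβ called 2 members (Jun and Jund). Tet2/3 deficiency called 2 members (Fosl2 and Junb) with DESeq2, RLE or no filter. Without a filter control Treg against naive cells called 6 members (main 5), Atf3 being added through counts in control Treg alone. The labels tie replicate numbers to no shared source. Deviations of same-numbered libraries correlated at 0.222 to 0.418 between every pair of the 4 TGFβ cultures, at 0.013 to 0.09 between all other pairs of groups in the first table, and at 0.078 to 0.197 in the second. With 2 libraries a group, both numbers give 1 value per pair of groups, so whether the numbers pair the TGFβ cultures is not settled. With the block vitamin C on TGFβ and RA called 1363 genes, Jun with vitamin C (1.29, edgeR adjusted p = 0.0654) and Junb with RA (-0.84, 0.0672) missed, and Jund with vitamin C passed (-0.28, 0.0475). No paired analysis was possible for the ex vivo Treg because their columns carry no replicate number of a sample. Values that changed sign were never called. Jund was -0.00032 for Th0 against naive cells with the block, 0.004 for vitamin C on TGFβ and RA with limma, and -0.00035 for Tet2/3 deficiency with all 20 libraries, and the Fosl2 interaction was 0.00096 with limma. On leaving out a library, Fos ran from -1.64 to 0.041 for RA on TGFβ, -0.85 to 0.91 for vitamin C on TGFβ, -1.56 to 0.48 for vitamin C on TGFβ and RA and -1.84 to 0.25 for the interaction. Fosb ran over the same comparisons from -2.63 to 0.10, -0.84 to 1.26, -1.58 to 1.16 and -2.13 to 0.60, and from -0.14 to 0.47 for Tet2/3 deficiency. Others were the Fosl2 interaction (-0.43 to 0.18), Jun for RA on TGFβ (-0.055 to 0.71), Junb for vitamin C on TGFβ and RA (-0.42 to 0.07) and Jund for Th0 against naive cells (-0.15 to 0.17), vitamin C on TGFβ and RA (-0.097 to 0.083) and Tet2/3 deficiency (-0.058 to 0.081). The cause of these shifts was not tested. limma on FPKM moved the share of higher calls for control Treg against naive cells from 52.1% to 63.5% and the median of all genes to 0.10, and DESeq2 moved that median to 0.12 for control Treg against TGFβ iTregs, with no member's direction changed. Depth limits Batf3 and Atf3, at under 20 counts a library.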
